A study of Homo sapiens with 8 samples.

Results

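The 59 genes described here encode nuclear subunits of the respiratory chain and ATP synthase. They were chosen by name, as the listed subunits of complexes I to V with a row in the deposited tables, and all 59 of them were found among 23713 rows. Complex I has 32 members, complex II has 4, complex III has 7, complex IV has 10 and complex V has 6. The rule used gene names only, but the list was drawn up with earlier results of these data known. Poly(A) RNA was sequenced in bulk from the NALM6 cell line, which derives from a human B-cell precursor leukemia and here carried doxycycline-inducible HMGN1 (HA in the sample titles). HMGN1 is a nucleosome-binding protein, and the study asked whether more of it raises transcription across the genome. The 8 libraries form 4 groups of 2. SE DOX and SE vehicle cells carried the S20,24E mutant, which lacks nucleosome binding, and WT DOX and WT vehicle cells carried wild-type HMGN1. DOX cells received doxycycline at 100 ng/ml for 6 hours and vehicle cells received vehicle alone. Each group holds a biological replicate A and a biological replicate B. All groups share the same line, growth medium and inducible system, and the labels do not say whether the SE and WT lines are clones or pools.

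Mitochondrial respiration passes electrons from NADH through complex I, or from succinate through complex II, to ubiquinone, then through complex III and cytochrome c to complex IV, where oxygen is reduced. The proton gradient that complexes I, III and IV build drives complex V, the ATP synthase. Complexes I, III, IV and V combine subunits from the mitochondrial genome with nuclear-encoded ones, whereas complex II is entirely nuclear-encoded. Nuclear respiratory factors, with NRF1 and the ETS factor GABP (also called NRF2) as the best known, bind many promoters of these genes. None of the mitochondrially encoded subunits is analysed here.

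The libraries expressed the markers of the B-cell precursor lineage. The 10 B-cell precursor markers were all present, with means over the 8 libraries of the unnormalized table between 27.04 FPKM for CD22 and 877 FPKM for IGLL1, the surrogate light chain. T-cell, erythroid, and muscle and heart markers were at or near 0, with a highest mean of 0.106 FPKM for MB, and of 4 myeloid markers LYZ alone passed 1 FPKM (mean 2.18). HMGN1, the induced gene, did not stand higher in DOX than in vehicle libraries: it stood at 1421 and 1061 FPKM in SE DOX libraries A and B, against 1427 and 1066 in SE vehicle, and at 793 and 795 FPKM in WT DOX, against 809 and 796 in WT vehicle libraries. The labels do not say whether this row counts RNA from the construct, so DOX names the treatment label and not a measured induction. The 92 spike-ins took 0.531% to 1.06% of the summed unnormalized values, with the highest share in SE DOX A. One row, MIR1244-3, held 18.9% to 23.5% of the summed values, most in the WT B libraries. Depth is unknown, since the tables hold FPKM and no counts, so no counting interval is given. FPKM is the number of fragments scaled to transcript length and library size, and the spike-in-normalized table has the same genes after the authors' scaling to spike-ins added to equal numbers of cells.

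Promoter windows were available for 48 of the 59 members, from 250 bases before to 50 bases after the RefSeq start on GRCh38.p14. They were searched on both strands for exact matches to CGCATGCG (NRF1), CCGGAAG (GABP) and AAGATGGC (YY1). For each complex, 1 window with as many different motifs of these 3 as any other member's is printed, with matches in capitals. SDHD tied with SDHB, and UQCRH and UQCRQ tied with UQCRC1, and the first in the member list is shown. They are shown because such motifs are a feature of the members that no measured RNA enters. A GABP match on the other strand reads CTTCCGG. The windows lie at chr19:1383657-1383956 (+ strand, NDUFS7), chr1:17053983-17054282 (- strand, SDHB), chr3:48609597-48609896 (- strand, UQCRC1), chr12:120437863-120438162 (+ strand, COX6A1) and chr21:25735005-25735304 (- strand, ATP5J, now called ATP5PF).
NDUFS7: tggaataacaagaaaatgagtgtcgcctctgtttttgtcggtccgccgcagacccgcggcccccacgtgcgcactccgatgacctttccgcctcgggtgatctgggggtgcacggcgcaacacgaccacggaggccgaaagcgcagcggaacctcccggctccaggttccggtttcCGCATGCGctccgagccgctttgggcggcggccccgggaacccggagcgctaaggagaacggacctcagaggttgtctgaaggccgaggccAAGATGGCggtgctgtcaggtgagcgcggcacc
SDHB: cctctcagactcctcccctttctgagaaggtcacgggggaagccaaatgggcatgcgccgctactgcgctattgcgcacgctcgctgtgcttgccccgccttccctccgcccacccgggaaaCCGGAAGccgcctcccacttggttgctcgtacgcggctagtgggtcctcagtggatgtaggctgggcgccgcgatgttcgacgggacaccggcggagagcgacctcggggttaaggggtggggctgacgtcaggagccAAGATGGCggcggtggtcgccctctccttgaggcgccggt
UQCRC1: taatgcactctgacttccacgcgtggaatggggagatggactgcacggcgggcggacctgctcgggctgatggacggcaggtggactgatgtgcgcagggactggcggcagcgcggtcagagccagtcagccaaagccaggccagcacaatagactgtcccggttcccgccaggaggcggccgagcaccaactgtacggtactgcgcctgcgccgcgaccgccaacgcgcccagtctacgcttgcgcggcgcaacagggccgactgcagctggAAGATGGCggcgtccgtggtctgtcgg
COX6A1: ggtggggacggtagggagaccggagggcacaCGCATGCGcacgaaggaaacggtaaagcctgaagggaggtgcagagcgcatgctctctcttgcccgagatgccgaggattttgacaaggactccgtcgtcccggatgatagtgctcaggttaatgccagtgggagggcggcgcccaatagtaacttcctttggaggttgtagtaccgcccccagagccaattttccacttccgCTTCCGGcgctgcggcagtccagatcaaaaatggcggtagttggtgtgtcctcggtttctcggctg
ATP5J: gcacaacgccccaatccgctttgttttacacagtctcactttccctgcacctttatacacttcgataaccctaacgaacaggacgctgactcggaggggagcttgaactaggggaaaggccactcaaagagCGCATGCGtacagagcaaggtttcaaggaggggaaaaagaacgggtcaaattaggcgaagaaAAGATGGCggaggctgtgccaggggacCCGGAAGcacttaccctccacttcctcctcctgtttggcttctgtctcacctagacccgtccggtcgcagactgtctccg

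NDUFS7, an iron-sulfur subunit of complex I, has an NRF1 match that begins 74 bases before the start and a YY1 match 18 bases into the transcript. SDHB, the iron-sulfur subunit of complex II, has a GABP match 128 bases before the start and a YY1 match 11 bases into the transcript. UQCRC1, a core protein of complex III, has a YY1 match that begins 24 bases into the transcript. COX6A1, a subunit of complex IV, has an NRF1 match 219 bases and a GABP match 16 bases before the start. ATP5J, coupling factor 6 of the ATP synthase stalk, was the only 1 of the 48 windows with all 3: NRF1 at 119, YY1 at 57 and GABP at 30 bases before the start.

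Over the 48 windows, NRF1 matches stood in 8 (16.7%), against 4.4% of 8173 windows of genes tested here and 2.0% of all 35116 windows. YY1 matches stood in 10 (20.8%), against 6.2% and 2.9%. GABP matches stood in 14 (29.2%), against 21.2% and 10.3%. At least 1 of the 3 was present in 26 member windows (54.2%), against 28.8% of windows of genes tested and 14.1% of all windows. The NRF1 windows belong to NDUFA8, NDUFB4, NDUFS6, NDUFS7, SDHD, COX6A1, ATP5C1 and ATP5J, so complex III had none in 5 windows. GABP matches were in 5 of 9 complex IV windows. The SP1 motif GGGCGG was in 30 windows (62.5%), against 71.0% of windows of genes tested and 45.0% of all, and TATAAA in 6 (12.5%), against 5.0% and 11.5%. Median GC content was 61.0% in member windows, 65.3% in windows of genes tested and 58.7% in all. No test was made of these shares, and a match is a string of letters and not a measured binding site. The RNAs of the named factors were present: mean unnormalized levels were 11.3 FPKM for NRF1, 19.2 for GABPA, 26.7 for GABPB1 and 60.6 for YY1, whereas PPARGC1A, a coactivator of mitochondrial genes in muscle and brown fat, was at 0.018 FPKM.

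**Figure D1:**
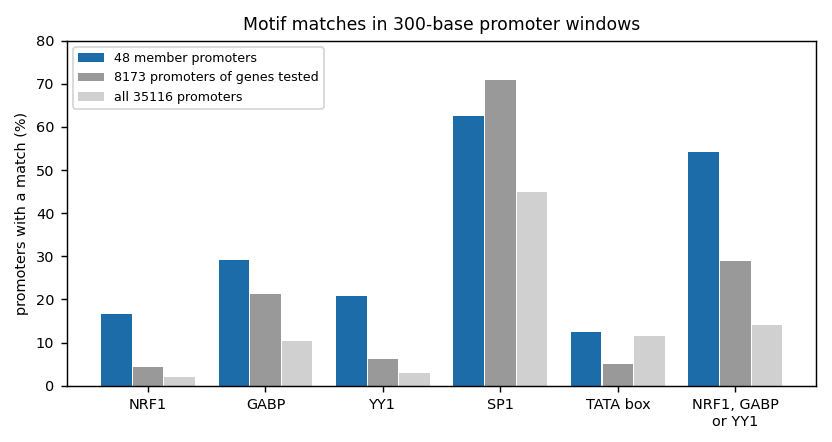
Share of promoter windows with at least 1 exact match to each motif, in percent, for member promoters, promoters of genes tested in the unnormalized table and all promoters. NRF1 (16.7% against 4.4%) and YY1 (20.8% against 6.2%) matches were more frequent among members than among genes tested, and SP1 matches were not (62.5% against 71.0%).

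All 59 members were well above the 1 FPKM minimum. FPKM is scaled by transcript length, so levels can be set side by side between genes. On the unnormalized scale the means over the 8 libraries ran from 16.1 to 782 FPKM, and the median member, at 122 FPKM, was above 94.4% of the 11042 genes tested. Complex IV was highest, with a median of 307 FPKM and a range of 168 to 782, followed by complex V with a median of 248 and a range of 68.1 to 567. Complex III had a median of 111 FPKM (19.9 to 439.9), complex II 98.6 FPKM (20.2 to 127) and complex I 86.3 FPKM (16.1 to 225).

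Within complex IV, COX7C was highest, at 782 FPKM, followed by COX6A1 at 439 and COX7B at 412, and COX6C was lowest, at 168. The paralogs of these subunits that are known from other tissues were nearly silent: COX6A2 (heart and skeletal muscle), COX4I2 (lung) and COX7B2 were listed at 0 in all 8 libraries, and COX7A1 (heart and muscle), COX6B2 and COX8C had means of 0.031 to 0.037 FPKM. NDUFA4L2, the paralog of NDUFA4, was at 1.24 FPKM. NDUFA4 is counted here with complex I, as in its name, though it is now regarded as a subunit of complex IV.

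Within complex V, the catalytic beta subunit ATP5B was highest at 567 FPKM, ahead of the alpha subunit ATP5A1 at 345, OSCP (ATP5O) at 284, gamma (ATP5C1) at 211 and coupling factor 6 (ATP5J) at 204. The delta subunit ATP5D was lowest, at 68.1 FPKM. In complex III, the hinge protein UQCRH stood at 439.9 FPKM, the core protein UQCRC2 at 133, the Rieske protein UQCRFS1 at 122, cytochrome c1 (CYC1) at 111, UQCRC1 at 99.1, UQCRQ at 56.9 and UQCRB at 19.9. In complex II, SDHB had 127 FPKM, the flavoprotein SDHA 99.3, the membrane anchor SDHD 97.9 and the other anchor, SDHC, 20.2.

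In complex I, NDUFA1 (225 FPKM) and NDUFA3 (219.8 FPKM), small accessory subunits, were highest, and NDUFV3, an accessory subunit of the NADH-binding arm, was lowest at 16.1 FPKM. NDUFC2 (21.5 FPKM) and NDUFA10 (22.2 FPKM) were the next lowest. The 6 core subunits among the members (NDUFS1, NDUFS3, NDUFS7, NDUFS8, NDUFV1 and NDUFV2), which carry the electron path, ran from 45.7 to 161 FPKM with a median of 91.4, and the other 26 had a median of 82.7. Neighbours in the order often did not differ beyond their spread: 25 of 31 neighbouring pairs in complex I were within 1 SD over the 8 libraries, as were 4 of 9 in complex IV, 3 of 6 in complex III, 1 of 3 in complex II and 1 of 5 in complex V. RefSeq names at least 1 pseudogene after 37 of the 58 members that could be matched, among them COX6C with 18, NDUFA5 with 12, SDHD with 7 and SDHC with 5. Reads of such genes can be divided between copies, so their levels are uncertain.

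**Figure D2:**
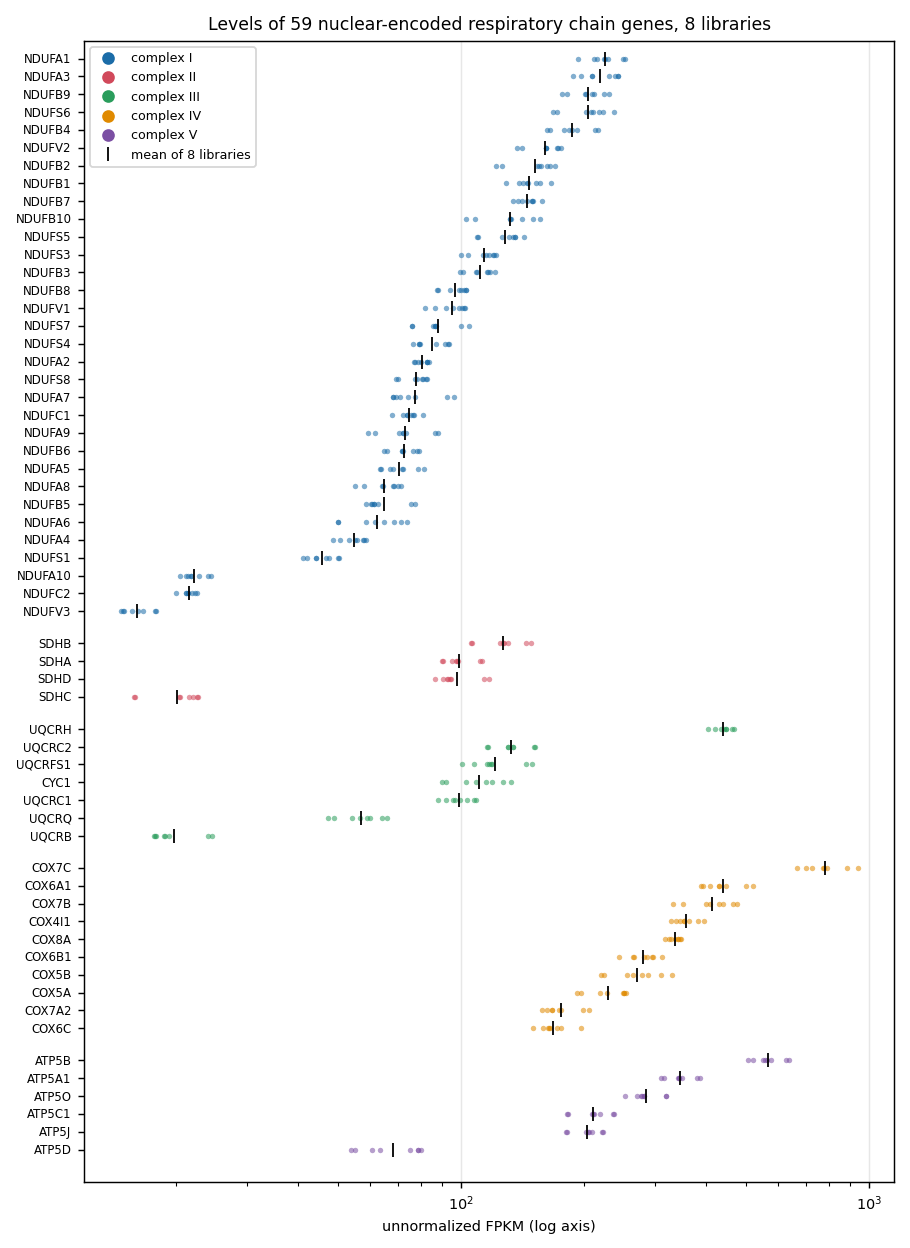
Unnormalized FPKM of each member in each of 8 libraries (dots, log axis) with the mean (tick), grouped by complex and ordered by mean. Complex IV spans 168 to 782 FPKM, and SDHC, UQCRB and NDUFV3 stand apart at the low end of their complexes.

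The A and B libraries of each construct differed by more for most members than the DOX and vehicle libraries did, and mostly in opposite directions in SE and WT. On the unnormalized scale the median coefficient of variation over 8 libraries was 8.97% for members, against 6.42% for the 5220 genes tested in the same range of levels. COX8A (3.11%) and NDUFA2 (3.36%), subunits of complexes IV and I, varied least. ATP5D (16.4%), NDUFA6 (14.5%) and NDUFA7 (14.4%) varied most. The summed level of all members was 8645 FPKM in SE DOX A, 10034 in SE DOX B, 8844 in SE vehicle A and 9623 in SE vehicle B, against 10835 in WT DOX A, 9675 in WT DOX B, 10988 in WT vehicle A and 10013 in WT vehicle B. The SE A libraries were thus lowest and the WT A libraries highest, with the 4 B libraries between them. In bulk RNA, fewer cells with a transcript and less of it per cell cannot be told apart.

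That order was noticed in the data and is given as a description. It was not particular to the members, since several lists of related genes, described below, shared it. Both WT A libraries were above, and both SE A libraries below, all other libraries for 38 of 59 members, against 10.7% of all genes tested. By complex these were 17 of 32 in complex I, 3 of 4 in complex II, 6 of 7 in complex III, 7 of 10 in complex IV and 5 of 6 in complex V. Within the SE construct, both A libraries were below both B libraries for 51 members and above them for 1, and 41.9% of all genes tested had A below B. Within the WT construct, both A libraries were above both B libraries for 50 members and below them for 2, and 36.9% of all genes tested had A above B. The median log2 difference of A from B was -0.16 in SE and 0.14 in WT, against -0.021 and -0.0055 over all genes tested.

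COX7C, the most abundant member, shows the order: it stood at 668 (A) and 789.9 (B) FPKM in SE DOX and 699.9 and 725 in SE vehicle, against 885 and 771 in WT DOX and 938 and 778 in WT vehicle libraries. ATP5B had 506 and 575 FPKM in SE DOX and 519 and 557 in SE vehicle, against 637 and 551 in WT DOX and 626 and 563 in WT vehicle libraries. The WT A libraries were highest for both genes and the SE A libraries lowest, and all B values of ATP5B lay between 551 and 575 FPKM. ATP5D, which varied most, differed by letter within SE: it had 55.02 (A) and 78.7 (B) FPKM in SE DOX and 53.7 and 78.4 in SE vehicle, against 75.05 and 60.5 in WT DOX and 80.1 and 63.4 in WT vehicle libraries. For ATP5D the letters ran in opposite directions, with A below B in SE and A above B in WT.

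**Figure D3:**
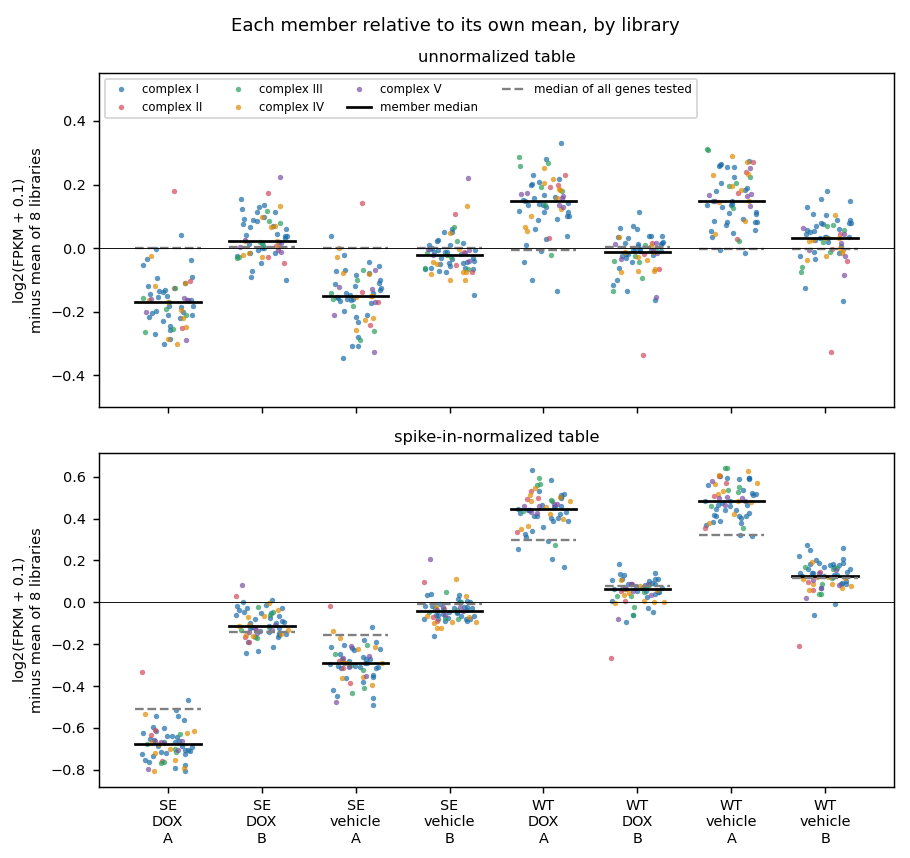
Each dot is 1 member's log2(FPKM + 0.1) in a library minus its own mean over 8 libraries, in the unnormalized table (top) and the spike-in-normalized table (bottom). Black lines are member medians and dashed lines medians of all genes tested relative to their mean. In the unnormalized table the member medians leave the all-gene line downward in both SE A libraries and upward in both WT A libraries.

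The spike-in-normalized table, in which spike-in sums were nearly equal between libraries, showed a wider spread. The summed level of the members was 6093 FPKM in SE DOX A, 9136 in SE DOX B, 8033 in SE vehicle A and 9506 in SE vehicle B, against 13335 in WT DOX A, 10180 in WT DOX B, 13863 in WT vehicle A and 10694 in WT vehicle B. The all-gene median moved with the libraries here, and the member median moved further: the member median minus the median of all genes tested was 2.75 in SE DOX A and 2.80 in SE vehicle A on the log2 scale, against 3.22 in WT DOX A and 3.18 in WT vehicle A. In the 4 B libraries it lay between 2.95 and 2.98.

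DOX was compared with vehicle within each construct, with limma's empirical Bayes test on log2(FPKM + 0.1) and Benjamini-Hochberg adjustment over all genes tested. No member passed an adjusted p of 0.05 in either construct, in either table, and no member had an unadjusted p under 0.05. This fit, used for all comparisons here, did not pair libraries by letter. Same-letter libraries of a construct deviated together, with correlations over genes of 0.72 to 0.77. The difference between letters thus entered the spread, and the absence of small p-values does not show an absence of DOX differences. A replicate block called no member either. In SE cells, 0 of 59 members were called in the unnormalized table, against 0% of 11042 genes tested, and 0 of 59 in the spike-in-normalized table, against 0.00896% of 11163. In WT cells 0 of 59 were called in each table, against 0% of genes tested in each. Over all genes tested, 33 and 14 had an unadjusted p under 0.05 in SE and WT in the normalized table, and 12 and 13 in the unnormalized table.

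The DOX differences of members were small on the unnormalized scale. In SE the member median was 0.019 on the log2 scale, with 42 members above 0 and 17 below, and in WT it was -0.034, with 8 above and 51 below. The all-gene medians were -0.00068 and -0.0019. With 1 library left out at a time the member median ranged from -0.091 (without SE DOX B) to 0.12 (without SE DOX A) in SE. In WT it ranged from -0.11 (without WT DOX A) to 0.049 (without WT DOX B). Leaving out 1 library leaves the letters unbalanced. These ranges therefore also hold the difference between A and B libraries and do not settle the sign of the DOX difference. The median half-width of the 95% intervals was 0.27 on the log2 scale, so changes under 1.21-fold lay within the interval for a typical member in this fit, which does not pair libraries by letter. In SE the smallest p-values belonged to NDUFC1 (log2 fold change 0.091 ± 0.078, SE), NDUFA2 (0.062 ± 0.064) and NDUFV3 (0.11 ± 0.12), each with an adjusted p of 1.00 in limma. In WT they belonged to NDUFC2 (-0.082 ± 0.067), NDUFB6 (-0.098 ± 0.099) and NDUFB1 (-0.079 ± 0.088), also with adjusted p of 1.00. Levels of NDUFC2 show how small these differences are: 20.1 (A) and 21.2 (B) FPKM in WT DOX, against 21.4 and 22.3 FPKM in WT vehicle libraries. Both DOX values were below both vehicle values there.

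Taken by letter, the DOX and vehicle libraries of the same construct were close. In unnormalized values, 54 members in SE A, 47 in SE B, 56 in WT A and 55 in WT B differed by less than 0.1 on the log2 scale between DOX and vehicle. Among all genes tested, 83.6%, 82.5%, 86.5% and 76.0% did so in the same 4 pairs. The member median of DOX minus vehicle was -0.015 in SE A, 0.051 in SE B, -0.020 in WT A and -0.052 in WT B. The widest differences were those of COX6C, a complex IV subunit, at -0.17 in WT A, and of NDUFA3 at -0.19 in WT B.

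In the spike-in-normalized table all 59 members were lower with DOX in SE, as were 99.3% of genes tested. The member median was -0.22 against -0.24 over all genes tested. In WT 58 members were lower, against 75.4% of genes tested, with a median of -0.064 against -0.032. By letter, DOX minus vehicle had a member median of -0.37 in SE A, where the all-gene median was -0.35, and of -0.068 in SE B, where it was -0.13. Without SE DOX A the SE median was 0.060, and without SE DOX B it was -0.51, again with the letters unbalanced. The WT median lay between -0.25 (without WT DOX A) and 0.14 (without WT DOX B). In SE the smallest p-values were those of NDUFA10 (-0.27 ± 0.23), the Rieske protein UQCRFS1 (-0.30 ± 0.29) and NDUFS1 (-0.26 ± 0.25), a core subunit of complex I that carries iron-sulfur clusters, all with a limma adjusted p of 0.506. In WT they were those of NDUFC2 (-0.11 ± 0.22), NDUFB6 (-0.13 ± 0.26) and NDUFA3 (-0.12 ± 0.29), with adjusted p of 1.00. NDUFA10 had 15.1 (A) and 19.9 (B) FPKM in SE DOX, against 20.5 and 21.1 FPKM in SE vehicle libraries. Both DOX values of NDUFA10 were below both vehicle values, as they were for 4220 of 11163 genes tested and 2 of the 59 members.

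The DOX effect in SE minus that in WT, tested as an interaction, was not called for any member, against 0.00896% of genes tested in the spike-in-normalized table and 0% in the unnormalized table. No member had an unadjusted p under 0.05 there, against 16 and 9 of all genes tested. The member median in the normalized table was -0.17 against -0.21 over all genes, and the smallest p-values were those of NDUFS1 (-0.24 ± 0.35), UQCRFS1 (-0.25 ± 0.41) and ATP5O (-0.25 ± 0.42), each with a limma adjusted p of 0.817. In the unnormalized table the median was 0.045 against -0.0011, with 53 members above 0, and NDUFB6 (0.18 ± 0.14), NDUFC2 (0.11 ± 0.095) and NDUFB3 (0.15 ± 0.13) had the smallest p-values, with an adjusted p of 1.00. The 2 tables thus gave opposite signs for the members' median, but the all-gene median also differed between them. Relative to the all-gene median, the member median was higher by 0.043 with spike-in normalization and by 0.046 without it. In both cases, 53 members lay above the all-gene median and 6 below. Leaving out 1 library at a time moved the member median between -0.45 and 0.11 in the normalized table. In the unnormalized table the member median moved between -0.053 and 0.14. The ends were without SE DOX B and without SE DOX A in both.

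**Figure D4:**
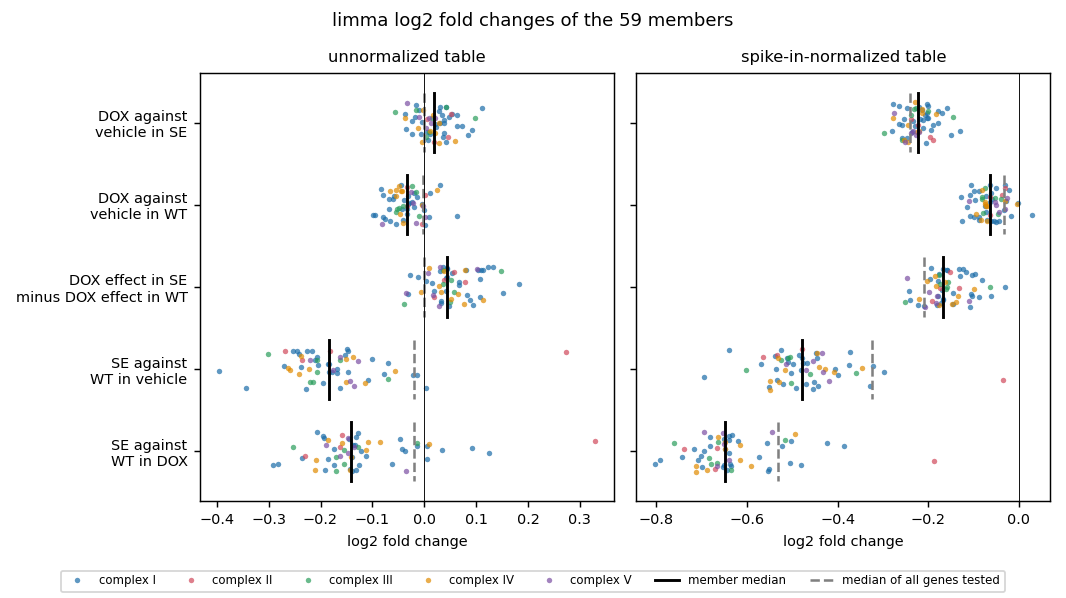
limma log2 fold changes of the 59 members for each comparison, in the unnormalized (left) and spike-in-normalized (right) tables. Black lines are member medians and dashed lines medians of all genes tested. The DOX effects lie near the all-gene medians, whereas SE against WT lies below them, with SDHC of complex II apart from the rest.

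SE was then compared with WT within each treatment. Same-letter libraries of a construct, which deviated together, entered this fit as independent. Its p-values thus rest on fewer independent replicates than the fit counts. Most members were lower in SE, and lower than the typical gene, but none passed the threshold. In DOX, 0 of 59 were called in the unnormalized table, against 0.0725% of genes tested, and 0 in the normalized table, against 4.66%. In vehicle, 0 were called in the unnormalized table, against 0.0906%, and 0 in the normalized table, against 0.493%. The lowest limma adjusted p over members in the unnormalized table was 0.680 in DOX and 0.540 in vehicle, and in the normalized table it was 0.0503 in DOX and 0.333 in vehicle. An unadjusted p under 0.05 was reached in the unnormalized table by 3 members in DOX, against 7.04% of genes tested, and by 4 in vehicle, against 7.35%. After spike-in normalization it was reached by 48 members in DOX, against 66.9%, and by 6 in vehicle, against 12.6%. The count of 0 in DOX in the normalized table rested on the threshold and on single libraries: it was 58 without SE DOX B, when 78.5% of all genes tested were called, 16 without WT DOX B (28.1%), and 36 with genes of at least 5 FPKM (56.9%).

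On the unnormalized scale the member median was -0.14 in DOX, with 52 members below 0, and -0.18 in vehicle, with 57 below 0. The all-gene medians were -0.019 and -0.020. Both SE libraries were below both WT libraries for 14 members in DOX, against 20.9% of genes tested, and for 41 in vehicle, against 24.0%. In DOX the medians of complexes I to V were -0.13, -0.16, -0.16, -0.14 and -0.15, and in vehicle they were -0.18, -0.21, -0.21, -0.19 and -0.15, so the complexes had similar medians. On the normalized scale the medians were -0.65 in DOX and -0.48 in vehicle, against -0.53 and -0.32 over all genes. There, both SE libraries were below both WT libraries for 55 members in DOX and 54 in vehicle, against 87.4% and 78.1% of genes tested.

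NDUFA6, an accessory subunit of complex I, was among the smallest p-values in all 4 of these fits. It had 50.1 (A) and 61.5 (B) unnormalized FPKM in SE DOX and 49.9 and 58.6 in SE vehicle, against 71.2 and 64.8 in WT DOX and 73.7 and 68.7 in WT vehicle libraries. All 4 SE values were below all 4 WT values. Its log2 fold change was -0.29 ± 0.12 in DOX (limma adjusted p = 0.702) and -0.40 ± 0.12 in vehicle (adjusted p = 0.589). After spike-in normalization it was -0.80 ± 0.27 in DOX (adjusted p = 0.0503) and -0.70 ± 0.27 in vehicle (adjusted p = 0.333).

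NDUFS4, an accessory subunit whose loss causes complex I deficiency in humans and mice, had 79.5 (A) and 78.8 (B) FPKM in SE DOX and 78.9 and 76.3 in SE vehicle, against 93.2 and 86.8 in WT DOX and 91.4 and 93.7 in WT vehicle libraries. Here the groups did not overlap and the letters were close. Its log2 fold change was -0.19 ± 0.067 in DOX (limma adjusted p = 0.680) and -0.25 ± 0.067 in vehicle (adjusted p = 0.540). NDUFS1 had 41.1 and 44.1 FPKM in SE DOX and 42.0 and 44.1 in SE vehicle, against 50.1 and 47.5 in WT DOX and 50.2 and 46.7 in WT vehicle libraries. Its log2 fold change was -0.20 ± 0.074 in DOX (adjusted p = 0.698), again without overlap.

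UQCRQ, a small subunit of complex III, had 48.8 (A) and 59.8 (B) FPKM in SE DOX and 47.2 and 54.0 in SE vehicle, against 64.1 and 56.5 in WT DOX and 66.0 and 58.8 in WT vehicle libraries. Its groups overlapped in DOX and not in vehicle, where the log2 fold change was -0.30 ± 0.13 (limma adjusted p = 0.654). NDUFB10, an accessory subunit of the membrane arm, had 108 and 132 FPKM in SE DOX and 103 and 133 in SE vehicle, against 149.9 and 132 in WT DOX and 156 and 141 in WT vehicle libraries. NDUFA9, an accessory subunit of the matrix arm, had 59.3 and 72.3 FPKM in SE DOX and 61.6 and 70.7 in SE vehicle, against 87.9 and 72.2 in WT DOX and 86.4 and 73.3 in WT vehicle libraries. The B values of NDUFB10 and NDUFA9 lay close together in both constructs, and the A values apart. In the normalized table NDUFB10 had a vehicle difference of -0.64 ± 0.29 and UQCRQ one of -0.60 ± 0.27 (adjusted p = 0.333 for each), and NDUFA9 and NDUFS1 had DOX differences of -0.79 ± 0.28 and -0.71 ± 0.25 (adjusted p = 0.0503 for each).

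Split by letter, SE and WT differed more between the A libraries than between the B libraries. This split was added after the data were seen, sets 1 library against 1 and has no test. It restates the order given above, with SE A lowest and WT A highest, and adds no support to it. In the unnormalized table, SE minus WT among A libraries had a member median of -0.32 in DOX, with 56 of 59 members below 0, and of -0.30 in vehicle, with 58 below 0. Among B libraries the member median was 0.044 in DOX, with 14 members below 0 and 45 above, and -0.059 in vehicle, with 46 below 0. The all-gene medians of the same 4 differences lay between -0.027 and -0.0068. In DOX the A medians ran from -0.39 in complex III to -0.29 in complex I. The B medians in DOX were 0.078 in complex III, with 7 members above 0, and near 0 in complexes II and V. Complex II had 0.0049, with 2 members above 0 and 2 below, and complex V 0.00078, with 3 above and 3 below. In vehicle the B medians were below 0 in every complex, from -0.083 in complex I to -0.024 in complex V. The core subunits of complex I, at -0.29 in A and 0.018 in B, and its other members, at -0.30 and 0.066, did alike in DOX. In the normalized table the member medians were -1.13 in DOX and -0.78 in vehicle among A libraries, against all-gene medians of -0.84 and -0.51. Among B libraries they were -0.17 in both DOX and vehicle, against -0.22 and -0.14. The labels do not say whether libraries of the same letter were handled together across constructs. Over genes, same-letter deviations correlated at -0.011 to 0.18 between constructs, so pairing SE A with WT A is arbitrary. With 1 library of each letter per group, construct and culture cannot be told apart within a letter.

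**Figure D5:**
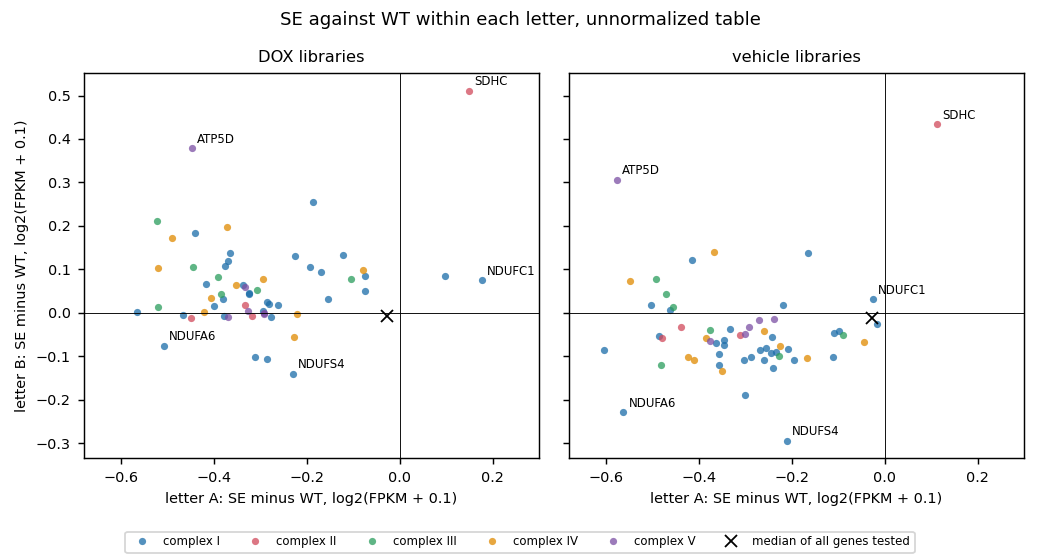
SE minus WT on the log2(FPKM + 0.1) scale among A libraries (horizontal) and among B libraries (vertical), unnormalized table, for DOX (left) and vehicle (right); each dot is 1 member and the cross is the median of all genes tested. Nearly all members lie left of 0, around the horizontal zero line, with SDHC at the upper right and ATP5D at the upper left.

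A few members did not follow the rest. SDHC had 22.7 (A) and 22.6 (B) FPKM in SE DOX and 22.1 and 21.6 in SE vehicle, against 20.5 and 15.8 in WT DOX and 20.4 and 15.9 in WT vehicle libraries. All 4 SE values were above all 4 WT values, and the WT B libraries were lowest. Its log2 fold change was 0.33 ± 0.15 in DOX (limma adjusted p = 0.702) and 0.27 ± 0.15 in vehicle, whereas in the normalized table it was -0.19 ± 0.24 in DOX and -0.035 ± 0.24 in vehicle. The other 3 complex II genes did not share this: SDHD, the partner anchor, had 90.7 and 94.1 FPKM in SE DOX and 86.6 and 92.5 in SE vehicle, against 114 and 93.05 in WT DOX and 117 and 94.6 in WT vehicle libraries.

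NDUFC1, a small accessory subunit, had 76.7 (A) and 80.6 (B) FPKM in SE DOX and 72.3 and 75.3 in SE vehicle, against 67.9 and 76.5 in WT DOX and 73.6 and 73.7 in WT vehicle libraries, and was highest in SE DOX. COX8A, which varied least, had 328 and 339.9 FPKM in SE DOX and 334 and 325 in SE vehicle, against 347 and 317 in WT DOX and 345 and 339.8 in WT vehicle libraries. The groups of COX8A overlapped in DOX, and in vehicle both SE values were just below both WT values. UQCRH, with 403 and 467 FPKM in SE DOX, 419 and 446 in SE vehicle, 433 and 442 in WT DOX and 446 and 462 in WT vehicle libraries, was low in SE A without being high in WT A. NDUFB2, an accessory subunit of the membrane arm, was highest in the B libraries: it had 126 (A) and 166 (B) FPKM in SE DOX and 122 and 157 in SE vehicle, against 154 and 163 in WT DOX and 156 and 171 in WT vehicle libraries.

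Of the members, 3 lie on chromosome 21, as HMGN1 does. ATP5J had 182 (A) and 205 (B) FPKM in SE DOX and 181 and 203 in SE vehicle, against 222 and 206 in WT DOX and 223 and 209.6 in WT vehicle libraries. ATP5O had 253 and 281 FPKM in SE DOX and 270.2 and 276 in SE vehicle, against 318 and 280.4 in WT DOX and 319 and 279 in WT vehicle libraries. Both followed the order of the other members, with WT A highest and SE A lowest. NDUFV3 had 15.7 and 17.9 FPKM in SE DOX and 14.8 and 16.2 in SE vehicle, against 17.8 and 15.0 in WT DOX and 16.6 and 14.7 in WT vehicle libraries, with overlapping groups. None of the 3 was called in any comparison.

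Genes of related processes were in part lower in SE as well. The summed unnormalized carriers had 1858 and 1860 FPKM in the SE A libraries and 2390 and 2396 in the WT A libraries. Their sums in the B libraries were 2067 to 2157 FPKM. Sums of the other nuclear-encoded subunits, assembly factors, mitochondrial genome expression and TCA cycle genes also had SE A lowest and WT A highest. Sums of glycolysis genes and nuclear regulators did not. Over the 8 unnormalized libraries these lists ran from NUBPL (5.18 FPKM) to PET100 (139) among assembly factors, from TFB1M (6.49) to SLIRP (320) in mitochondrial genome expression, from SUCLG2 (0.0014) to MDH2 (171) in the TCA cycle, from SLC25A4 (10.7) to SLC25A5 (436) among carriers and from ENO2 (2.76) to GAPDH (2899) in glycolysis. All 20 other nuclear-encoded subunits that are not members were below 0 for SE against WT in the unnormalized table, with medians of -0.13 in DOX and -0.21 in vehicle, and 0 were called. Of the 17 glycolysis genes, 14 were below 0 in each treatment, with medians of -0.22 in DOX and -0.21 in vehicle. Of 16 tested TCA cycle genes 14 were below 0 in each, with medians of -0.092 and -0.12. Assembly factors, which build the complexes, had medians of -0.078 in DOX and -0.092 in vehicle (37 tested), and 14 genes of mitochondrial genome expression -0.084 and -0.099. The 12 mobile carriers and shuttles, such as cytochrome c (CYCS) and the adenine nucleotide carrier SLC25A5, had medians of -0.12 and -0.16. Nuclear regulators, including NRF1 and GABPA, had medians of 0.013 and 0.011, with 4 of 9 below 0 in DOX and 3 of 9 in vehicle.

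In the normalized table, 2 of the 17 glycolysis genes and none of the other related genes passed the threshold for SE against WT in DOX, where 4.66% of all genes tested did. Both encode hexokinases, which catalyse the first step of glycolysis. HK1 had 11.8 (A) and 18.2 (B) normalized FPKM in SE DOX, against 32.4 and 23.1 in WT DOX libraries, a log2 fold change of -0.89 ± 0.24 (limma adjusted p = 0.0365). HK2 had 17.6 and 24.98 normalized FPKM in SE DOX, against 40.6 and 32.7 in WT DOX libraries, a log2 fold change of -0.79 ± 0.24 (adjusted p = 0.0486). Both were lower in both SE libraries than in both WT libraries, as were 87.4% of genes tested in this comparison. The all-gene median there was -0.53, and the share of genes called changed with the filter and with left-out libraries. Of the 10 B-cell precursor markers, 2 fell in the same comparison: CD22 and CD79A, B-cell surface genes, by 1.26 and 0.92 on the log2 scale (limma adjusted p = 0.00700 and 0.0464). Of the 10, 8 were below 0 there with a median of -0.56, close to the all-gene median of -0.53, and DNTT (0.086) and RAG1 (0.14) were above 0. In unnormalized values 5 of the 10 were above 0 in DOX and 5 below, with a median of -0.047 and none called. LYZ fell by 1.36 in the normalized table (adjusted p = 0.0284). LYZ, the only myeloid marker above 1 FPKM, had 1.47 (A) and 1.22 (B) unnormalized FPKM in SE DOX, against 3.96 and 1.68 in WT DOX libraries. The summed B-cell precursor markers ranged from 2199 to 2605 unnormalized FPKM in SE libraries and from 2464 to 2643 in WT libraries, and the summed myeloid markers from 1.54 to 2.27 and from 1.82 to 4.86. Their part in the members' differences was not tested.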

How the data were processed

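RNA from 8 NALM6 libraries, 2 per group, was sequenced with a poly(A) kit after ERCC spike-ins had been added to equal numbers of cells, per the labels' protocols. The authors deposited FPKM values in 2 tables, 1 before and 1 after spike-in normalization. HISAT, Cufflinks 2.0.0 and the hg19 build are named in the submitters' processing notes, and how spike-ins were used is not stated there or in the labels. The unnormalized spike-in sums were 5675 to 10042 FPKM and the normalized ones 7050 to 7166 FPKM. The normalized table holds no 0, its lowest values being 0.0718 to 0.101.

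From these values, log2(FPKM + 0.1) was tested with limma 3.58.1 (R 4.3.3; moderated variances with an intensity trend, 1 fit of all 8 libraries) for genes with a mean of at least 1 FPKM, with Benjamini-Hochberg adjustment over all genes tested and a threshold of 0.05. Fold changes understate changes of low genes. Genes with small-RNA names (302) and spike-ins (92) were left out. Errors of fold changes are standard errors, and p-values measure the spread between replicates labelled biological. The fit counts DOX and vehicle libraries of the same construct and letter as independent, though they deviated together. Levels and figures used Python 3.11.15, pandas 2.3.3, numpy 2.4.6 and matplotlib 3.10.9. Only the limma fit was tested on simulated data, for DOX against vehicle in WT, with noise independent between libraries.

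Members and companion lists were chosen with earlier results of these data known. Genes are named where they are the 2 highest or the lowest of a complex, have 1 of the 3 smallest p-values in a fit, vary most or least, or are called or extreme in a companion list; the extremes of the other nuclear-encoded subunits are not reported here. COX7B, the remaining members of complexes II, III and V, the complex I cores, SDHC in SE against WT, NDUFC1, UQCRH, NDUFB2 and the chromosome 21 genes were described after their values were seen. Promoters came from RefSeq on GRCh38.p14. Alternatives covered pseudocount, filter, small RNAs, block, equal medians, 1 spike-in factor, subsets and left-out libraries. All 26 listed mitochondrially encoded genes are not analysed here.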

Additional observations from a re-analysis of the deposited data

How the results depend on the processing

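No alternative called a member in a DOX comparison, and in the 2 SE against WT comparisons of the unnormalized table none did either. In the normalized table, SE against WT in DOX called 0 members as reported, but 36 with a mean of at least 5 FPKM (56.9% of all genes tested called), 21 with 1 spike-in factor per library (37.5%), 2 with a replicate block (14.8%) and between 0 and 58 when 1 library was left out. In vehicle, 1 member (NDUFA6) was called when only the 2 groups compared entered the fit (3.395% of all genes tested). Equal library medians moved the normalized member medians to -0.14 in DOX and -0.18 in vehicle, with or without the replicate block, which are close to the unnormalized ones. Within letter A the normalized medians were -1.13 in DOX and -0.78 in vehicle, and within letter B -0.17 in both. In the unnormalized table the DOX median was -0.32 within A and 0.044 within B. This split by letter was chosen after the data were seen.

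Some normalized DOX differences of single members changed sign when 1 library was left out, which leaves the letters unbalanced between the groups compared. UQCRFS1 in SE lay between -0.60 and 0.0039, NDUFB6 in WT between -0.26 and 0.0034, and NDUFA3 in WT between -0.34 and 0.094. By letter, DOX minus vehicle of UQCRFS1 in SE was -0.46 in A and -0.13 in B. In the difference of DOX effects, UQCRFS1 lay between -0.55 and 0.050 and ATP5O between -0.51 and 0.013. The causes were not tested.

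The labels do not say that a letter pairs samples across groups. Deviations of same-letter libraries correlated at 0.72 to 0.77 over genes within a construct and at -0.011 to 0.18 between constructs. The replicate block narrowed the median half-width of the unnormalized DOX intervals to 0.078 from 0.27, still with 0 members called. With 2 libraries per group, unknown depth and no block, changes under about 1.49-fold in the normalized and 1.21-fold in the unnormalized table lay within a typical member's interval.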
